A study of Mus musculus with 6 samples.

Results

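Beta cells of an islet act together because they touch each other. Gap junctions, channels built from connexins, let ions and small molecules pass between neighbouring cells and couple their electrical activity, while cadherins and NCAM hold endocrine cells together. Ephrin-A ligands and EphA receptors signal in both directions where beta cells meet, and are known to tune insulin secretion. The genes described here are Gjd2 (connexin 36, the connexin of mouse beta cells), Gja1 (connexin 43, common in many other cell types), Cdh1 (E-cadherin), Cdh2 (N-cadherin), Ncam1 (neural cell adhesion molecule), Efna5 (ephrin-A5) and Epha5 (its receptor EphA5). They were chosen by name from the gene annotation the authors supplied with their FPKM tables, and make up 7 of the 47643 genes counted.

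Messenger RNA was sequenced from pancreatic islets of 10-week-old male mice that had been fasted for 12 h. WT mice were wild type, and TG mice carried a beta cell specific miR-203 transgene, whose promoter the labels do not name. Each genotype had 3 libraries, numbered here within the genotype, with 20176456 to 27482339 counts each. WT 1, WT 2, TG 1 and TG 2 came from one set of tables (the first table), WT 3 and TG 3 from another (the second table). No label says that libraries came from separate animals, so each p-value reflects only how far these libraries spread, possibly for technical reasons. The comparison asks which genes differ between TG and WT islets.

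Several libraries stood apart. Xist, a transcript of female cells, had 4 to 13 counts in the first table but 25145 and 27240 in the second, and 4 Y-linked genes had 5463 to 7468 counts in the first table against 16 and 1 in the second, although every mouse was labelled male. The Mir203 gene had 170, 164 and 150 counts in TG 1, TG 2 and TG 3, 0 in WT 2 and WT 3, and 39 in the library labelled WT 1. The beta-cell markers Ins1, Ins2, Iapp, Mafa, Ucn3, Slc2a2, Nkx6-1, Pdx1, G6pc2 and Slc30a8 were all detected, and 9 of these 10 had lower fitted values in TG. Their median member lay 2.30, 0.39 and 1.26 log2 units below the WT level of the same table in TG 1, TG 2 and TG 3, so TG 2 was the TG library closest to WT. By read counts, the closest pair of all libraries was WT 1 and TG 2 (chi-square per degree of freedom 31.6), closer than WT 1 and WT 2 (42.4). Values of the 7 genes are therefore also given without TG 2 or without WT 1 where that changed a call. TG 2 was singled out by its likeness to WT, so leaving it out favours calls. Without it edgeR called 1461 genes higher in TG and 727 lower, against 0 with all libraries. Calls without TG 2 are thus a description and add no support.

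The mature miR-203-3p is shown first because it is the product of the transgene, and the windows after it show where the adhesion and coupling transcripts hold a match to its seed. The sequence is from RefSeq (GRCm38.p6, chr12:112130927-112130948, plus strand), with the seed, bases 2 to 8, in capitals.
miR-203-3p: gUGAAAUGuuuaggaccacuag
The 3′ UTRs of GENCODE M21 transcripts (GRCm38) were searched on the transcript strand for CATTTCAA (8mer), CATTTCA (7mer-m8) and ATTTCAA (7mer-A1). The 8mer holds both 7-base motifs and was counted once. Gjd2 carried a pair of sites whose first bases lie at positions 722 and 747 of its 1428-base 3′ UTR, and Epha5 and Ncam1 carried 1 each. The windows below run 5′ to 3′ and end opposite the first base of the microRNA, with the match in capitals.
Gjd2 7mer-A1, chr2:114010301-114010322, minus strand: gaatgggaggggggaATTTCAA
Gjd2 7mer-m8, chr2:114010275-114010296, minus strand: acttatgagatggtCATTTCAc
Ncam1 7mer-A1, chr9:49503320-49503341, minus strand: tgatgctaggttataATTTCAA
Epha5 7mer-m8, chr5:84057121-84057142, minus strand: attagtttagtgacCATTTCAg
No 8mer was found in the longest 3′ UTR of any of the 7 genes, and no site of any kind in those of Gja1, Cdh1, Cdh2 and Efna5 (1270 to 3158 bases). Such motifs are common. Among tested genes with a 3′ UTR within 20% of the length of that of Gjd2, 22.4% of 2058 held at least 1 site. The same share was 50.03% for Ncam1 and 59.4% for Epha5, whose 3′ UTRs are 3307 and 4281 bases long. A match is a stretch of letters and does not show binding.

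Connexin 36 and E-cadherin transcripts were the most abundant of the 7 per gene length, and EphA5 the least. Levels of different genes are compared here as library-size-scaled counts (CPM, on TMM-adjusted library sizes) per kilobase of gene length. In WT the order was Gjd2 with 80.8 ± 4.08, Cdh1 with 77.3 ± 4.83, Cdh2 with 12.6 ± 0.345, Ncam1 with 7.95 ± 2.36, Gja1 with 2.13 ± 0.426, Efna5 with 2.05 ± 0.388 and Epha5 with 0.0115 ± 0.00767 CPM per kilobase (SD, n = 3). Gjd2 and Cdh1 overlapped in that order, as did Gja1 and Efna5, while every other neighbouring pair was apart in all WT libraries. In TG the order began with Cdh1 at 91.9 ± 24.4 and Gjd2 at 58.8 ± 11.3 CPM per kilobase, and was otherwise the same, though Cdh1 overlapped Gjd2 and Cdh2 overlapped Ncam1. Over all 6 libraries, Cdh1 had more transcript per kilobase than 96.9% of the 16072 tested genes and Gjd2 more than 96.1%. Gja1 exceeded 44.7% and Efna5 34.0%, whereas 6 or fewer counts of Epha5 were found in each WT library. The deposited FPKM values gave the same order of the 7 genes in each genotype.

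**Figure D1:**
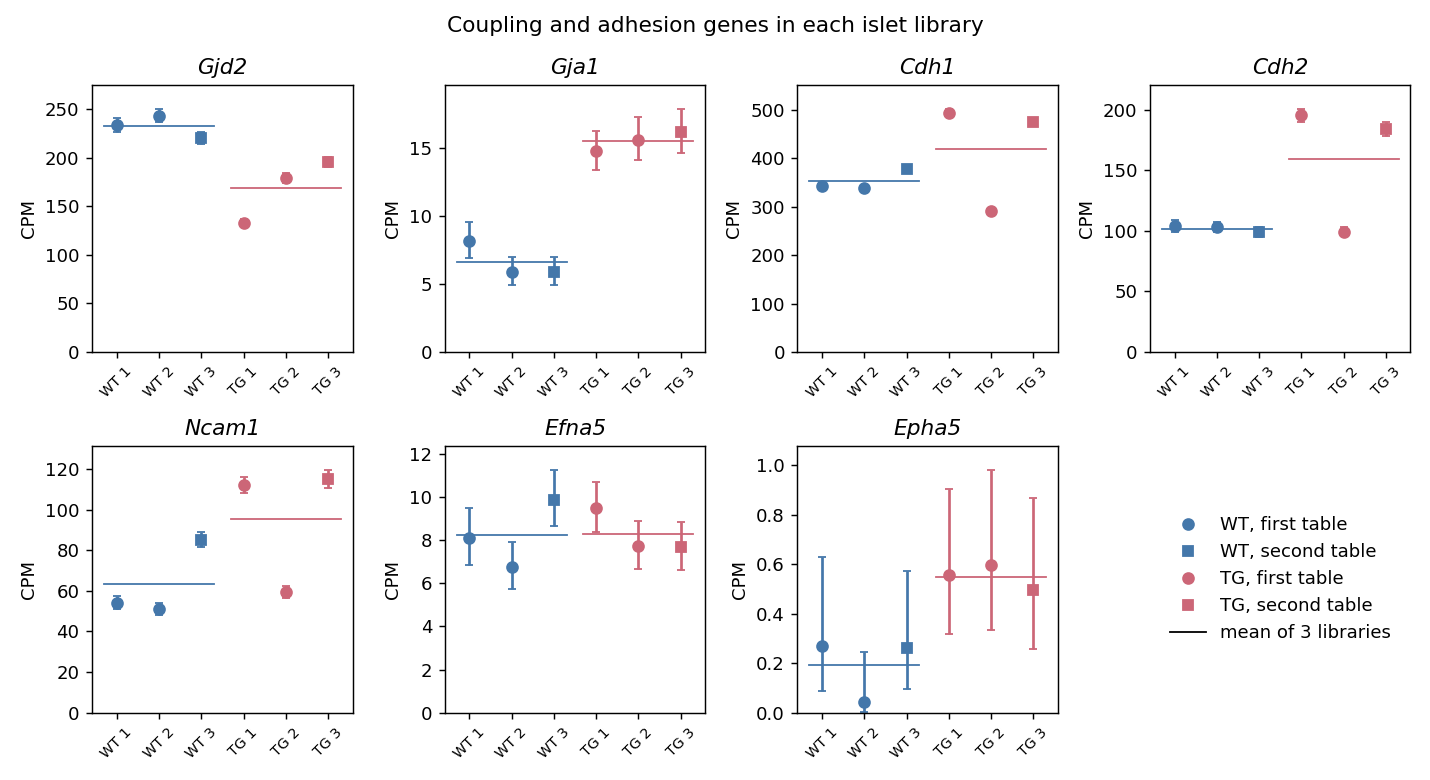
Level of each gene (CPM, vertical axis from 0) in each of the 6 libraries, with 95% exact Poisson intervals for counting error only; lines mark the mean of 3 libraries, circles the first table and squares the second. All TG libraries lie above all WT libraries for Gja1 and Epha5 and below them for Gjd2. For Cdh1 and Cdh2, TG 2 lies at or below the WT level. Epha5 passed the low-count filter only through its TG libraries.

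None of the 7 genes passed the test of TG against WT. The edgeR quasi-likelihood test, with the table as a term and Benjamini-Hochberg adjustment over all 16072 tested genes, called 0 genes at an adjusted p under 0.05 (0% of those tested), and limma-voom also called 0 (0%). All 7 genes passed the low-count filter, Epha5 through its TG libraries. At an unadjusted p under 0.05, Gja1, Cdh2 and Ncam1 were higher in TG, where 9.32% of all tested genes were, and Gjd2 was lower, where 4.81% were. Epha5 also reached that limit on the higher side, but a gene that enters the test through its high group had to differ, so it is not counted with them. In limma-voom at the same limit Gja1 was higher (8.48% of all genes) and Gjd2 lower (5.43%), whereas Cdh2 and Ncam1 missed it. Epha5 reached it too and is left uncounted for the same reason. DESeq2 called 1 of the 7 (Gja1), with 3.83% of all genes called higher and 0.846% lower. Without TG 2, edgeR called 3 (Gja1, Cdh2 and Ncam1), against a background of 8.82% higher and 4.39% lower. Without the low-count filter the same 3 were called, against 4.37% of all genes higher and 1.25% lower. Without WT 1, edgeR called 0 genes. Gja1 then stayed higher at an unadjusted p under 0.05, against 7.93% of all genes. Cdh2, Ncam1 and Gjd2 missed it, with 2.37% of all genes lower. Epha5 reached it and is again not counted.

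Connexin 36 transcripts were lower in every TG library than in every WT library. Gjd2 (ENSMUSG00000068615, chromosome 2, 114009601 to 114013619, minus strand) measured 234, 244 and 220 CPM across WT 1, WT 2 and WT 3. In TG 1, TG 2 and TG 3 it measured 133, 179 and 196 CPM. The groups did not overlap, a pattern with TG below WT found in 6.42% of all tested genes, and TG 3 came closest to its WT. TG averaged 169 ± 32.5 CPM against 233 ± 11.8 CPM for WT (SD, n = 3), a log2 fold change of -0.47 (SE 0.18), or 1.38-fold lower in TG. The edgeR Benjamini-Hochberg adjusted p was 0.319. Set against WT of the same table, Gjd2 lay 0.84, 0.41 and 0.17 log2 units lower in TG 1, TG 2 and TG 3, a difference of smaller size in TG 1 and TG 3 than the 2.30 and 1.26 of the median beta-cell marker. That marker list, all 10 of its genes detected, summed to 117163 to 238368 CPM in WT and 54720 to 224372 CPM in TG, and its part in the Gjd2 difference was not tested. In whole islets, fewer beta cells and less transcript per beta cell cannot be told apart.

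A transcript that starts head to head with Gjd2 had its lowest levels in the same TG library. A530058N18Rik, a non-coding gene on the plus strand (chromosome 2, 114013602 to 114032292), shares 18 bases with the start of Gjd2. A second entry of that name (114013563 to 114068324) shares 57 bases with Gjd2 and had 0 to 5 counts per library. The first entry gave 30.4, 32.8 and 30.3 CPM in WT 1, WT 2 and WT 3. In TG 1, TG 2 and TG 3 it gave 10.3, 27.7 and 13.9 CPM. Its log2 fold change was -0.86 (SE 0.34, edgeR adjusted p = 0.333). Without TG 2 the fold change was -1.40 (edgeR adjusted p = 0.00415), where 4.39% of all tested genes were called lower. This transcript too was lower in each TG library than in each WT library. Its TG 2 lay near WT and its TG 3 far below, which was not the order of Gjd2. Whether counting used the strand is not given in the sources used here, and reads of the shared bases cannot be told apart.

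Connexin 43 transcripts were more than doubled in all TG libraries, and evenly so. Gja1 (ENSMUSG00000050953, chromosome 10, 56377300 to 56390419, plus strand) drew 151, 133 and 134 counts from WT 1, WT 2 and WT 3, equal to 8.15, 5.85 and 5.87 CPM. TG 1, TG 2 and TG 3 gave 424, 393 and 389 counts, equal to 14.7, 15.6 and 16.1 CPM. The groups were far apart, and TG 2 was as high as the other TG libraries, unlike for the cadherins. A pattern with every TG library above every WT library was found in 6.96% of all tested genes. TG averaged 15.5 ± 0.707 CPM against 6.62 ± 1.32 CPM for WT (SD, n = 3), a log2 fold change of 1.23 (SE 0.21), or 2.35-fold. The edgeR p of 0.000659 was the 28th smallest of all tested genes, and its adjusted p of 0.199 did not pass.

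DESeq2 put the adjusted p of Gja1 at 8.57e-05 and edgeR without TG 2 at 0.0155, where 1 TG library is left in the first table and is assumed to vary like the others. Over the alternatives tried it ran from 8.57e-05 to 0.924, and the log2 fold change from 1.11 to 1.42, the highest being without WT 1. Connexin 43 is found in fibroblasts and vessel cells. All 8 stellate-cell and fibroblast markers were detected, summing to 13.8 to 70.0 CPM in WT and 19.6 to 140.5 CPM in TG. All 8 endothelial markers were detected too, with sums of 231 to 375 CPM in WT and 273 to 502 CPM in TG. In TG 2, where Gja1 was at 15.6 CPM, both sums lay inside their WT ranges (19.6 and 273 CPM). The summed duct markers, like Gja1, were higher in all TG libraries. They came to 687 to 1044 CPM in WT and 1950, 1487 and 1529 CPM in TG 1, TG 2 and TG 3. The part of these cells in the Gja1 difference was not tested.

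**Figure D2:**
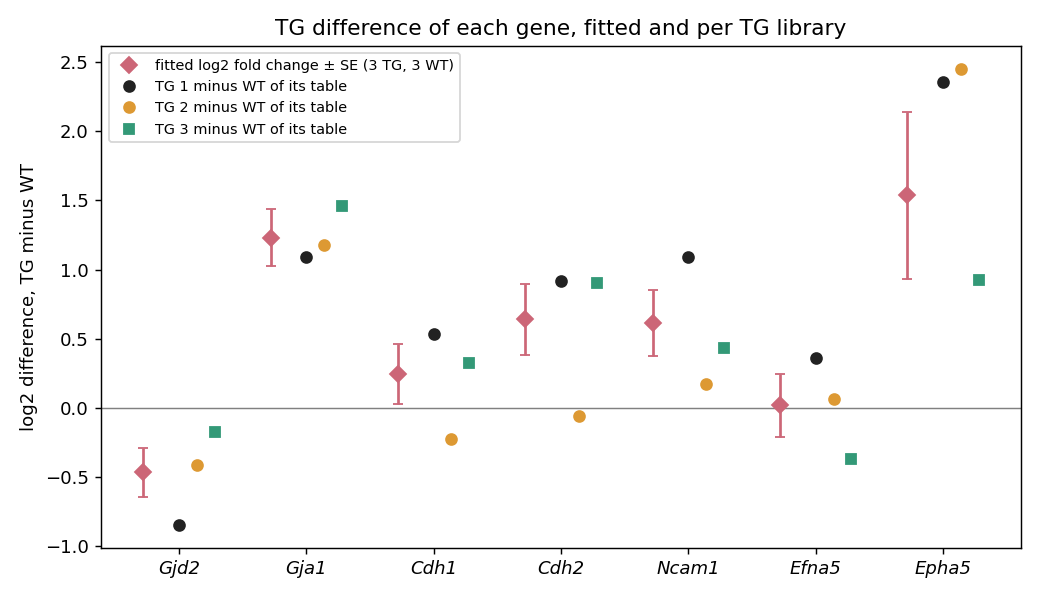
Log2 difference between TG and WT for each gene: the fitted edgeR fold change with its SE over 3 TG and 3 WT libraries (diamonds), and each TG library minus the mean of the WT libraries of its own table (circles, squares for the second table). The Gja1 points lie between 1.09 and 1.46, whereas the Cdh2 point of TG 2, at -0.06, is apart from 0.92 and 0.90 in TG 1 and TG 3.

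The balance of the connexins within a library does not depend on how libraries are scaled. Per gene length, Gjd2 exceeded Gja1 by 30.9, 44.9 and 40.5 times in WT 1, WT 2 and WT 3. It exceeded Gja1 by 9.73, 12.4 and 13.1 times in TG 1, TG 2 and TG 3. Connexin 36 thus stayed the more abundant transcript in every library, at a ratio whose highest TG value was below the lowest WT value. The mean log2 ratio was 3.54 ± 0.227 in TG and 5.26 ± 0.278 in WT (SD, n = 3). The ratio was not tested.

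E-cadherin transcripts were higher in TG 1 and TG 3 and lowest of all libraries in TG 2. Cdh1 (ENSMUSG00000000303, chromosome 8, 106603351 to 106670246, plus strand) measured 344, 338 and 379 CPM across WT 1, WT 2 and WT 3. The TG libraries 1, 2 and 3 gave 494, 292 and 475 CPM. The genotypes overlapped. TG averaged 420 ± 112 CPM against 354 ± 22.1 CPM for WT (SD, n = 3), and the log2 fold change was 0.25 (SE 0.22, edgeR adjusted p = 0.647). Without TG 1 the fitted value was 0.02 and without TG 2 it was 0.44 (adjusted p = 0.0974).

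N-cadherin transcripts split the TG libraries in the same way, with TG 2 at the WT level. Cdh2 (ENSMUSG00000024304, chromosome 18, 16588877 to 16809246, minus strand) held to 104, 103 and 98.8 CPM in WT, an SD of 2.79 CPM. TG 1, TG 2 and TG 3 gave 195.5, 99.5 and 184 CPM. TG 1 and TG 3 thus had close to double the WT level while TG 2 lay among the WT libraries. The mean in TG was 159.7 ± 52.5 CPM against 101.9 CPM in WT, a log2 fold change of 0.64 (SE 0.26, edgeR adjusted p = 0.335). Without TG 2 it was 0.90 and passed (edgeR adjusted p = 0.00557), where 8.82% of all tested genes were called higher. Over the alternatives the adjusted p ran from 0.00557 to 0.9997. Without TG 1 the fitted value was 0.36.

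E-cadherin was the more abundant cadherin per gene length in every library. Cdh1 exceeded Cdh2 per gene length by 5.83, 5.78 and 6.77 times in WT 1, WT 2 and WT 3, and by 4.45, 5.17 and 4.55 times in TG 1, TG 2 and TG 3. All TG ratios, that of TG 2 included, were below all WT ratios. The cadherin ratio was not tested. The mean log2 ratio was 2.24 ± 0.117 in TG and 2.61 ± 0.128 in WT (SD, n = 3).

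NCAM transcripts were higher in each TG library than in WT of its own table, by unequal amounts. Ncam1 (ENSMUSG00000039542, chromosome 9, 49502136 to 49798925, minus strand) measured 54.2 and 51.2 CPM in WT 1 and WT 2 but 85.3 CPM in WT 3. The level was 112 CPM in TG 1, 59.3 CPM in TG 2 and 115 CPM in TG 3. WT 3 was therefore above TG 2, and the genotypes separated only within a table. TG lay above WT within each table in 13% of all tested genes and below it in 13.4%. Those shares include genes whose genotypes were apart over all libraries. TG 1, TG 2 and TG 3 lay 1.09, 0.17 and 0.43 log2 units over WT of their tables, and the log2 fold change was 0.61 (SE 0.24, edgeR adjusted p = 0.323). Without TG 2 it was 0.81 and passed (edgeR adjusted p = 0.0263), where 8.82% of all tested genes were called higher. Without TG 1 it was 0.29. The adjusted p of Ncam1 over the alternatives ran from 0.0263 to 0.946.

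Markers of cells other than beta cells also differed between the libraries. NCAM is a surface protein of nerve and Schwann cells as well as of endocrine cells. All 8 Schwann-cell markers were detected, and summed to 13.5 to 23.5 CPM in WT and 29.1, 18.5 and 36.2 CPM in TG 1, TG 2 and TG 3. The 5 nerve-cell markers summed to 24.2 to 49.1 CPM in WT and to 78.0, 20.4 and 98.8 CPM in TG 1, TG 2 and TG 3. Both sums were lower in TG 2 than in TG 1 and TG 3, as Ncam1 was. The nerve-cell sum is mostly Th, and the defining nerve-cell gene Dbh was at 0 in the WT libraries and in TG 1. E-cadherin is made by all pancreatic epithelia. The sum of the 8 duct markers, all detected, was above its WT range in TG 2 as well, where Cdh1 and Cdh2 were not. The 6 delta- and PP-cell markers summed to 8368 to 9578 CPM in WT. In TG 1, TG 2 and TG 3 they summed to 26284, 13236 and 36371 CPM, so their sum too was above WT in TG 2. Of these markers, Ppy, Pyy and Rbp4 were above their WT range in TG 2, whereas Sst, Hhex and Ghsr were inside theirs. The part of these cells in the Cdh1, Cdh2 and Ncam1 values was not tested.

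**Figure D3:**
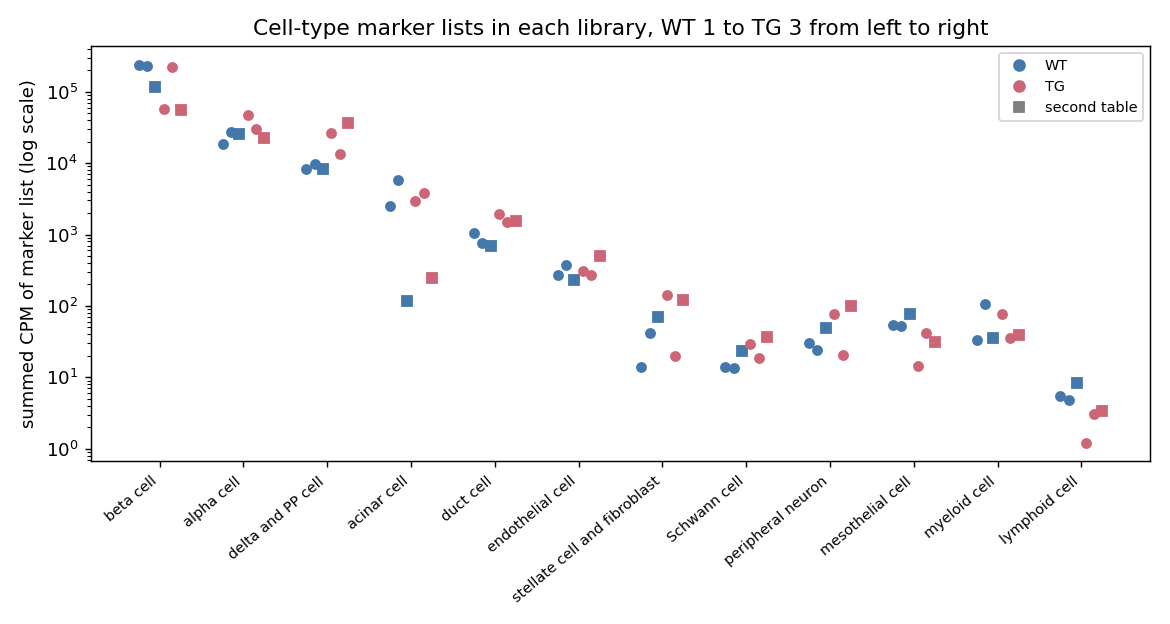
Summed CPM (log scale) of each cell-type marker list in each library, from WT 1 on the left to TG 3 on the right within a list; squares mark the second table. Beta-cell sums are lowest in TG 1 and TG 3, duct sums are higher in all TG libraries, and acinar sums follow the table.

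Ephrin-A5 transcripts overlapped between the genotypes. Efna5 (ENSMUSG00000048915, chromosome 17, 62604184 to 62881317, minus strand), the membrane-anchored ligand, measured 8.10, 6.78 and 9.89 CPM across WT 1, WT 2 and WT 3. Its level was 9.49 CPM in TG 1, 7.74 CPM in TG 2 and 7.68 CPM in TG 3. The genotypes overlapped fully, with a log2 fold change of 0.02 (SE 0.23, edgeR adjusted p = 0.978). That value had the other sign without TG 1 (-0.12) and without WT 2 (-0.11).

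EphA5 transcripts were barely detected. Epha5 (ENSMUSG00000029245, chromosome 5, 84054761 to 84417382, minus strand) drew 5, 1 and 6 counts from WT 1, WT 2 and WT 3. TG 1, TG 2 and TG 3 gave 16, 15 and 12. Every TG library was above every WT library, averaging 0.550 ± 0.0490 CPM against 0.192 ± 0.128 CPM (SD, n = 3). Epha5 passed the low-count filter only through its TG libraries. Neither this order nor the ratio that follows is therefore a test of a difference. Summed over libraries, 43 counts in TG and 12 in WT gave a ratio per effective library size of 2.94, with an exact 95% interval of 1.52 to 6.13 that covers counting error only. The fitted log2 fold change was 1.53 (SE 0.61, edgeR adjusted p = 0.330), and at 1 count in WT 2 it depends on the prior count. Without WT 2 it was 1.003, and DESeq2 gave this gene no adjusted p. The pseudogene Hmgn2-ps1, which lies inside the Epha5 span, had 8 to 38 counts of its own, as many as or more than Epha5 in every library but TG 3.

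Per gene length, Efna5 exceeded Epha5 by 125, 639 and 156 times in WT 1, WT 2 and WT 3 and by 70.8, 54.0 and 64.0 times in TG 1, TG 2 and TG 3. The WT 2 ratio rests on the single Epha5 count there. In each library the ligand was thus far more abundant than this receptor.

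**Figure D4:**
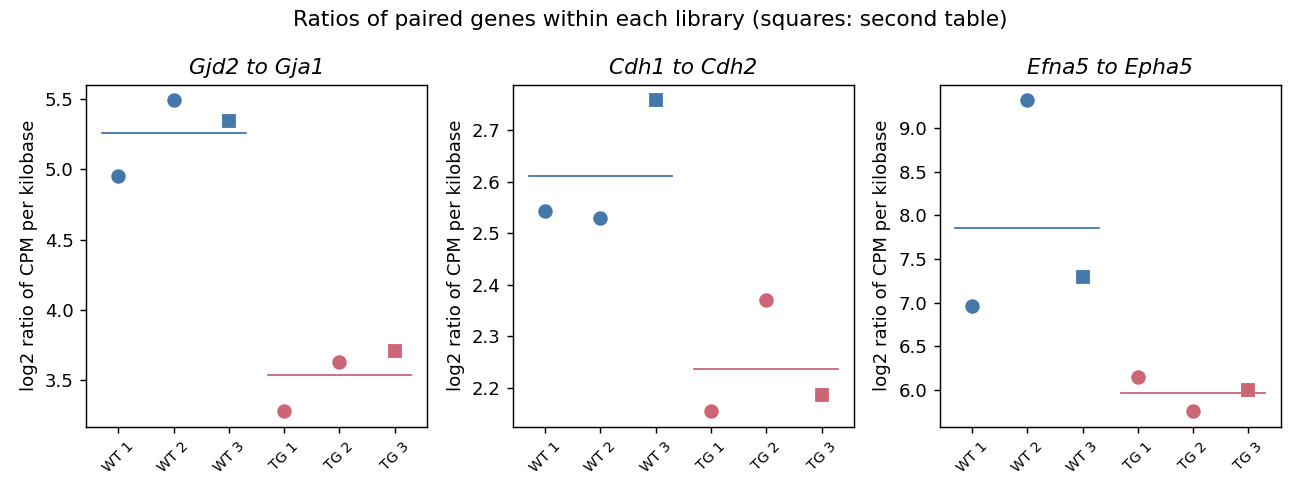
Log2 ratios of CPM per kilobase within each library for the connexins, the cadherins and the ephrin pair; lines mark means of 3 libraries and squares the second table. For each of the 3 ratios the highest TG value is below the lowest WT value, and the ratios were not tested. Epha5, in the ephrin ratio, passed the low-count filter only through its TG libraries. The ephrin ratio of WT 2 stands out at 9.32.

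No difference between the tables in the TG values was detected for any of the 7 genes in edgeR. The interaction of table and genotype gave an adjusted p of 0.9999 for each, and 0 of 16072 genes passed (0%), with 2.28% at an unadjusted p under 0.05. With 1 WT and 1 TG library in the second table, the spread came from the first table only. The largest interaction among the well-counted genes was that of Efna5, at -0.58 on the log2 scale, where the TG difference was above 0 in the first table and below 0 in the second.

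Across the rest of the junction and adhesion genes, 117 were listed by family and 75 passed the low-count filter. Of these, 56 had fitted values above 0 (higher in TG) and 19 below, with a median log2 fold change of 0.36. Of all 16072 tested genes, 7723 were above 0 and 8349 below, with a median of -0.01. None of the 75 passed at an adjusted p under 0.05 in edgeR. At an unadjusted p under 0.05 there were 16 higher and 3 lower, where the shares over all tested genes were 9.32% and 4.81%. Genes tested only through their TG libraries are among the higher ones. The lists were compiled with earlier results of these libraries known, and their counts are a description.

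**Figure D5:**
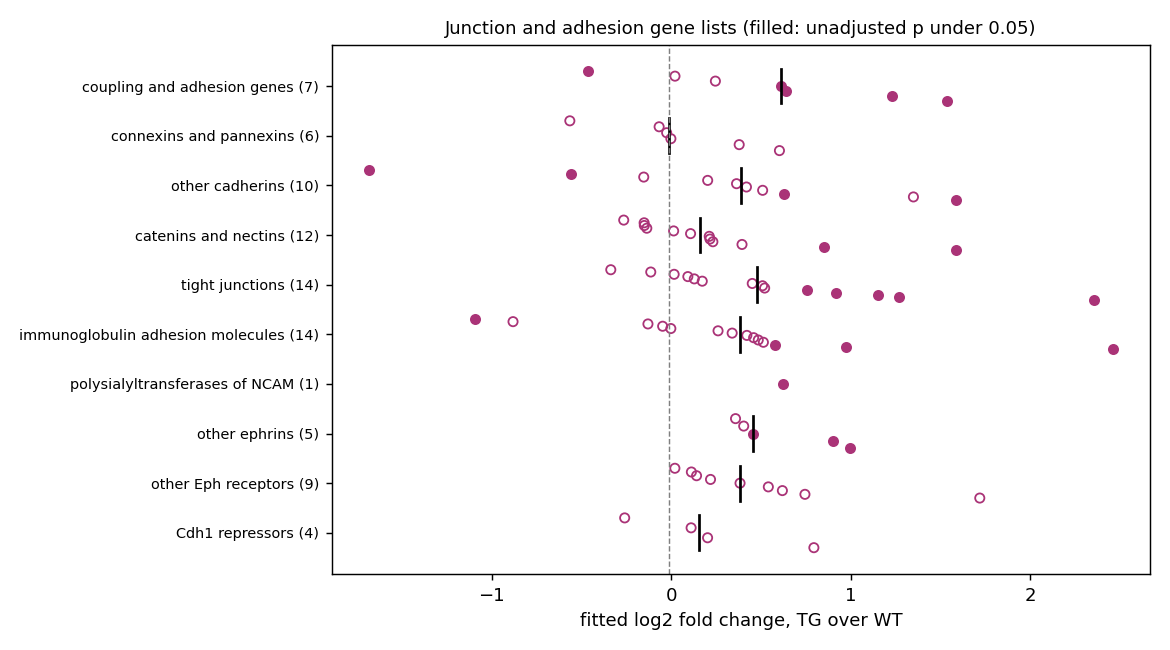
Fitted log2 fold change (TG over WT) of each tested gene, by list, with the number tested in brackets; filled points have an unadjusted p under 0.05, black bars are list medians and the dashed line is the median of all tested genes (-0.01). The other connexins centre on that line, whereas all 5 ephrins and all 9 Eph receptors tested lie to its right.

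Other gap-junction genes were mostly too low to test. Of the 21 other connexins and pannexins, 6 passed the filter, 2 higher and 4 lower, with a median log2 fold change of -0.01 and 0 at an unadjusted p under 0.05. The most counted over the 6 libraries was Panx2, a pannexin, at 10.5 ± 3.61 CPM in WT against 10.4 ± 3.34 in TG (SD, n = 3).

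Among 10 other cadherins tested, 7 were higher and 3 lower, with 2 on each side at an unadjusted p under 0.05. Over all tested genes the shares at that limit were 9.32% higher and 4.81% lower. Cdh8, a type II cadherin, measured 58.6, 50.4 and 58.5 CPM across WT 1, WT 2 and WT 3. TG 2 was near them with 44.97 CPM, whereas TG 1 had 9.39 CPM and TG 3 had 6.35 CPM. This was the reverse of Cdh2 in direction, with the same libraries apart. The log2 fold change of Cdh8 was -1.68 (edgeR adjusted p = 0.331, and 0.00103 without TG 2). Cdh22 had a log2 fold change of -0.56, and Cdh4 of 0.63 (edgeR adjusted p = 0.253, and 0.0190 without TG 2). With TG 2 left out, edgeR called 8.82% of all tested genes higher and 4.39% lower. The Schwann-cell cadherin Cdh19, counted among the higher ones, had 4 to 5 counts in WT and 11 to 27 in TG and entered the test only through TG. The endothelial cadherin Cdh5 was the most counted of the list over the 6 libraries, with a log2 fold change of 0.42 (adjusted p = 0.449), although Cdh8 had more counts in WT.

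None of the partners of the cadherins passed the edgeR test. Of 12 catenins, nectins and their linkers tested, 8 were higher and 4 lower, with a median log2 fold change of 0.16. Ctnnb1, beta-catenin, which links cadherins to the cytoskeleton, was at 732 ± 221 CPM in WT and 838 ± 128 CPM in TG (SD, n = 3, adjusted p = 0.667). The nectins Nectin4 and Nectin2 had log2 fold changes of 1.58 and 0.85 (adjusted p = 0.199 and 0.261), with Nectin4 under 7 CPM in all libraries. Without TG 2 edgeR called both, at adjusted p of 0.0120 and 0.0119, and Jup at 0.0196, where 8.82% of all tested genes were called higher. DESeq2 on all libraries called Nectin4 (adjusted p = 0.00525), where it called 3.83% of all tested genes higher. Of 7 transcription repressors known to act on Cdh1, 4 were tested and 0 had an unadjusted p under 0.05. The most counted, Zeb1, had a log2 fold change of 0.11.

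Tight-junction genes, which seal epithelia, had the same unequal TG libraries as the cadherins, their median gene lying 0.64, 0.02 and 0.71 log2 units over WT in TG 1, TG 2 and TG 3. Of 14 tested, 12 were higher and 2 lower, with 0 passing in edgeR. At an unadjusted p under 0.05, 5 were higher, where 9.32% of all tested genes were. Cldn4 (claudin 4), the most counted of the list, measured 178.5, 198 and 173 CPM across WT. TG 1, TG 2 and TG 3 gave 459, 189 and 392 CPM. Cldn2, a claudin that forms cation pores, was at 1.62 ± 0.407 CPM in WT and 8.59 ± 4.30 CPM in TG (SD, n = 3), and Cldn3 at 35.8 ± 7.38 and 86.5 ± 54.3 CPM. Their log2 fold changes were 0.92, 2.36 and 1.15 (edgeR adjusted p = 0.286, 0.199 and 0.243). Without TG 2, edgeR called 7 of the tight-junction genes higher, these 3 among them, and DESeq2 called 2. The shares of all tested genes called higher were 8.82% and 3.83%. Claudins are also made by duct cells, and the part of the duct markers given above in these values was not tested.

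Among 14 immunoglobulin-type adhesion molecules tested besides Ncam1, 9 were higher and 5 lower. Nfasc (neurofascin), the most counted, was at 231 ± 11.05 CPM in WT and 319 ± 77.6 CPM in TG (SD, n = 3), with a log2 fold change of 0.46 and an adjusted p of 0.380. At an unadjusted p under 0.05 in edgeR, 3 were higher and 1 lower, where the shares over all tested genes were 9.32% and 4.81%. The axonal molecule L1cam was the lower one, with a log2 fold change of -1.09. Cntn3, at 0.97, and Cadm3, at 2.46, were among the higher ones. Cadm3 had only 0 to 14 counts in WT against 23 to 68 in TG, so its fold depends on the prior count. It entered the test through its TG libraries, so its place among the higher ones was built in. Without TG 2, edgeR called Nfasc and Cntn3 higher (adjusted p of 0.0264 and 0.0247) and 1 lower (Nrcam, 0.0340). Cntn4, with 2 counts in each WT library, was also called higher. It entered that fit only through TG 1 and TG 3, so its call was built in and is not counted. DESeq2 called L1cam lower (adjusted p = 0.0493). Over all tested genes, 8.82% were called higher and 4.39% lower without TG 2, and DESeq2 called 0.846% lower. WT 3 stood apart for L1cam, at 20.3 CPM against 4.29 to 7.30 CPM in all other libraries. St8sia4, which adds polysialic acid to NCAM, had a log2 fold change of 0.62 (adjusted p = 0.281).

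None of the other ephrins and Eph receptors passed the edgeR test. At an unadjusted p under 0.05, 3 ephrins were higher, where 9.32% of all tested genes were. All 5 ephrins tested had fitted values above 0, with a median log2 fold change of 0.46. All 9 Eph receptors tested did too, Epha8 by only 0.02, with a median of 0.38 and 0 at an unadjusted p under 0.05. In TG 2 their median lay below WT, at -0.22. Efna2 was at 7.03 ± 0.563 CPM in WT and 13.5 ± 4.66 CPM in TG and Efna1 at 8.47 ± 0.736 and 17.2 ± 8.24 CPM (SD, n = 3), with log2 fold changes of 0.90 and 0.99 and adjusted p of 0.230 and 0.326. Efnb1, the most counted ephrin, had a log2 fold change of 0.46, and Ephb2, the most counted receptor, of 0.62 (adjusted p = 0.466). Without TG 2, edgeR called 3 ephrins (Efna1, Efna2 and Efnb1) and 1 receptor (Epha2) higher, where it called 8.82% of all tested genes higher. DESeq2 on all libraries called Efna2 (adjusted p = 0.0223), where it called 3.83% of all tested genes higher. The summed receptors were at 35.03 to 46.5 CPM in WT against 70.8, 37.1 and 80.9 CPM for TG 1, TG 2 and TG 3, so TG 2 again lay within the WT range.

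Genes with the most similar profiles were sought by Pearson's r of log2 CPM over the 6 libraries, among tested genes with a mean of at least 5 CPM. The libraries share genotype, table and depth, so r is a description here. For Cdh2 the nearest were Zfp365 (r = 0.996), Baiap2l1 (0.994) and Pak1 (0.994), and 186 of 11171 genes had an r over 0.95. For Ncam1 they were Stim1 (0.998), Lmf1 (0.993) and BC021891 (0.993), and for Cdh1 Ncstn (0.994), Ahi1 (0.992) and Tspan7 (0.991). Fewer genes followed the connexins. For Gjd2, 13 genes had an r over 0.95, led by Cntrl (0.995), Lonp2 (0.982) and Mvp (0.982), and for Gja1 there were 26, led by Rnf113a1 (0.984), Csn3 (0.982) and Rhbdl3 (0.979). For Efna5 the nearest were Ergic1 (0.984), Spg20 (0.977) and Sel1l (0.944). For Epha5, whose counts are too few to rank by, they were Vip (0.955), Serinc5 (0.953) and Gm13115 (0.943). Among the 7 genes themselves, Cdh1 and Cdh2 had an r of 0.913, Cdh1 and Ncam1 of 0.903, and Gjd2 and Gja1 of -0.744.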

How the data were processed

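The authors deposited raw counts, a normalized signal (each raw count times a factor per library) and FPKM for the 6 islet libraries, in 2 sets of tables, per the file headers and the values. The submitters' processing notes list CASAVA 1.8, HISAT2 and GRCm38 (mm10), while counter, annotation and strand setting were not given in the sources used here. Counts of both sets were joined on the gene identifier (29725 of 47643 genes had a count) and fitted in edgeR 4.0.16 (R 4.3.3): filterByExpr by genotype, TMM, table and genotype as terms, quasi-likelihood F-test, Benjamini-Hochberg adjustment, threshold 0.05. The SE was taken as the size of the log2 fold change over the root of F. Alternatives used DESeq2 1.42.0, limma 3.58.1 (voom) and other filters and scalings, and each library was left out in turn. The deposited signal was not used further, and the FPKM served only to order levels. Log2 CPM used a prior count of 2.

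The 7 genes, the lists and the tests were chosen with earlier results of these data known. Named beside the 7 were Mir203, the beta-cell markers, the gene overlapping Gjd2, and per list the gene with the highest mean CPM and at most 2 per direction with the smallest unadjusted p under 0.05. Epha2, Epha8, Cntn4, Nrcam, Jup and Hmgn2-ps1 were named after their values were seen. No pair of libraries agreed within sampling noise.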

Additional observations from a re-analysis of the deposited data

How the results depend on the processing

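The 7 genes were refitted 105 times, with 15 alternatives each. Of these alternatives, edgeR on all genes with its bias-adjusted likelihood was added after seeing the data. Among the refits, 96 kept direction and stayed unpassed, 7 passed the threshold and 2 had the other sign. Without WT 3 or TG 3, 1 library is left in the second table, and the table term absorbs it. Both settings thus nearly repeat the fit of the first table only (Gja1 at 1.113, 1.117 and 1.118) and are not separate checks. The number of genes called, 0 with edgeR, was 752 with DESeq2 and 1672 without the low-count filter, and 0 to 2188 with each library left out, every call coming from leaving out TG 2. The bias-adjusted form on the same unfiltered genes called 0, and 2035 higher and 971 lower genes reached an unadjusted p under 0.05. Gja1 passed with DESeq2 (log2 fold change 1.23) and without the filter (1.21), as did Cdh2 (0.62) and Ncam1 (0.59) without the filter. With each library left out, values ran from 1.11 to 1.42 for Gja1, 0.36 to 0.90 for Cdh2, 0.29 to 0.81 for Ncam1, -0.62 to -0.31 for Gjd2, 0.02 to 0.44 for Cdh1, 1.003 to 1.98 for Epha5 and -0.12 to 0.21 for Efna5, which was also below 0 without WT 2 (-0.11). The interaction with the table called 137 genes without the filter and 0 with it. No paired analysis was possible because the labels number WT and TG libraries separately. The cause of these differences was not tested. Depth limits Epha5 most, with 1 to 16 counts per library. DESeq2 gave Epha5 no adjusted p.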
